A study of Caenorhabditis elegans with 2 samples.

Results

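Distal intergenic NHR-23 peaks were defined by position alone. A thresholded peak was counted when its summit, the base of highest signal, lay outside every protein-coding gene body and more than 1500 bp from every protein-coding transcript start. Of the thresholded peaks, 940 met this rule and 4004 did not, a share of 19.0% (exact 95% interval 17.9 to 20.1), and they made up 28.4% of the peaks outside gene bodies. They occupied 938 distinct intervals, 2 of which carried 2 summits each. Peaks were obtained by chromatin immunoprecipitation and sequencing (ChIP-seq) of eGFP-NHR-23 from whole Caenorhabditis elegans at the L3 larval stage, with males and females pooled. The strain was OP43, which carries unc-119(ed3) on chromosome III and the integrated transgene wgIs43. The 2 biological replicates form 1 group, so no conditions were compared, and the control named in the labels was not used here. The antibody is labelled nhr-23, binding was measured on the tagged protein, and the mixed tissues of a whole larva cannot be told apart.

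The lists hold a signal value per peak, the peak caller's own measure, and no read counts, so the depth of each library is unknown. Ranks below are by this signal within 1 list. Intervals on shares cover counting error only. They treat peaks as independent, although nearby peaks can share a regulatory region, and peaks are not replicates of a condition.

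NHR-23, which belongs to the ROR branch of the nuclear receptors, acts in the larval epidermis, where its level rises and falls with each molt, and it is required for the old cuticle to be shed. Receptors of the ROR family bind as monomers to AGGTCA-type strings preceded by an A/T-rich stretch. In the compact worm genome most regulatory sequence lies near transcript starts, and elements farther away are fewer and include enhancers and the promoters of noncoding RNA genes.

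The letter patterns that recur under distal summits are shown first, in windows of 101 bp centred on the summit and read on the plus strand of ce11 (RefSeq WBcel235). Capitals mark AGGTCA or GGGTCA, the extended ROR element where it is present, and GAGAGA, each on either strand. The windows of C02B4.3 (chrX:12656590-12656690), pan-1 (chrIII:4560604-4560704) and srlf-26 (chrIV:13682863-13682963) hold AGGTCA or GGGTCA and rank 71, 263 and 333 in the thresholded list. Some stronger members with these strings, nhr-85 among them, are described without their sequence. Those of mrpl-28 (chrII:158490-158590) and mlt-8 (chrII:574206-574306) hold the ROR element. The window of W02H3.3 (chrX:11094131-11094231) is that of the strongest distal peak of all and holds none of these strings. Each window is named after the protein-coding gene with the nearest start.
C02B4.3: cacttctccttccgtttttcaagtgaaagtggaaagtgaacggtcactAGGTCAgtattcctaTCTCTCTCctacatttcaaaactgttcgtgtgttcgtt
pan-1: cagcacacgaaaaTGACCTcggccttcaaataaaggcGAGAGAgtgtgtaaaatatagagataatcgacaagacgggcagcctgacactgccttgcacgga
srlf-26: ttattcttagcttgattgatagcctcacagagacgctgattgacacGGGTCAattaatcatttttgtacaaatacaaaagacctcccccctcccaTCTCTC
mrpl-28: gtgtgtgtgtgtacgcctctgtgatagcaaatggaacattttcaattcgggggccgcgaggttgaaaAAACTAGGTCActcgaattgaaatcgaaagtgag
mlt-8: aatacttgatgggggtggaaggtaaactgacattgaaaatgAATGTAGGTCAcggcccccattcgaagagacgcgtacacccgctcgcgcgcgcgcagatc
W02H3.3: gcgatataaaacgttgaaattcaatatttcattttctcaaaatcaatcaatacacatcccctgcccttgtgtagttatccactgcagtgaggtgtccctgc

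The next windows lie beside 4 let-7 family microRNA genes, which are known regulators of larval developmental timing. They are let-7 (chrX:14745390-14745490), mir-84 (chrX:16022983-16023083), mir-48 (chrV:14364653-14364753) and a pair beside mir-241 (chrV:14366677-14366777 for the stronger peak and chrV:14367265-14367365 for the weaker). Capitals mark the same strings as above.
let-7: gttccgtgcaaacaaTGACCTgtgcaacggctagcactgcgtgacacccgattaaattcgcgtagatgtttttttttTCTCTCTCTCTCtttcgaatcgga
mir-84: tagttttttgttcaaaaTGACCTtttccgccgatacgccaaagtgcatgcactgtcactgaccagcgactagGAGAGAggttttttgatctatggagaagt
mir-48: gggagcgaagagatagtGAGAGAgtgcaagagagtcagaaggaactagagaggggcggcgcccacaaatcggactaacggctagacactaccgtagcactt
mir-241, stronger: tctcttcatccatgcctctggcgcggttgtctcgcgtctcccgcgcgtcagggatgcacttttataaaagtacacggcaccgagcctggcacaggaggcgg
mir-241, weaker: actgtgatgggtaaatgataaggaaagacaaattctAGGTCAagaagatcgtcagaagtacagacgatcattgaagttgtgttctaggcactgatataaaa

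The last window is that of the strongest distal peak whose summit lay inside a tRNA gene (chrX:12458185-12458285). Capitals here mark the bases of T18D3.t1, an alanine tRNA gene on the minus strand.
T18D3.t1: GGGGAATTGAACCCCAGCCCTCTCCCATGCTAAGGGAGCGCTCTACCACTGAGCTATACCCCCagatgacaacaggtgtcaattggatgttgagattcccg

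Distal peaks were slightly weaker than the rest of the list and did not reach its highest values. Their signal had a median of 57.4, with quartiles of 43.3 and 86.0 and a range of 34.3 to 457, against a median of 61.2 and a highest value of 967 in the 4004 other peaks. Their median percentile was 46.3, against 50.9 in the other peaks. They made up 18 of the 100 strongest thresholded peaks, and with the list cut into 10 bins by rank their share ran from 15.8% at ranks 1 to 494 to 22.1% at ranks 3462 to 3955. The median width was 324 bp in both classes. The 20.1 Mb of sequence that meets the rule is 20.1% of the nuclear genome. Distal peaks fell on it at 46.7 per Mb, and the other peaks fell on the remaining sequence at 49.96 per Mb. That remaining sequence pools gene bodies with intergenic sequence near starts, and 2369 of the 4004 other peaks lay in the intergenic part. The density near starts alone was not computed.

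Support from both replicates depended on the signal of the member and on how overlap was counted. Among the 940 members, 609 (64.8%, 61.6 to 67.8) lay in a peak that was strong in both replicates, meaning among as many of a replicate's strongest peaks as the thresholded list holds, against 67.4% of all thresholded peaks. Where at least 50% of both intervals had to overlap, the share was 46.7%. By the summit, another 13.8% were strong in replicate 1 only, 19.3% in replicate 2 only, and 20 members in neither. In 4 groups of 235 members in order of falling signal, 227, 210, 140 and 32 were strong in both. The list derives from the same 2 libraries, so this fall is partly built in and is not independent support. At 903 members both full lists had a peak, and the Spearman correlation of their signals was 0.538 (n = 903 peaks of the same 2 libraries), against 0.616 for 3870 other peaks. Each replicate's own strongest peaks held a similar number of distal summits, 920 in replicate 1 and 930 in replicate 2.

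**Figure D1:**
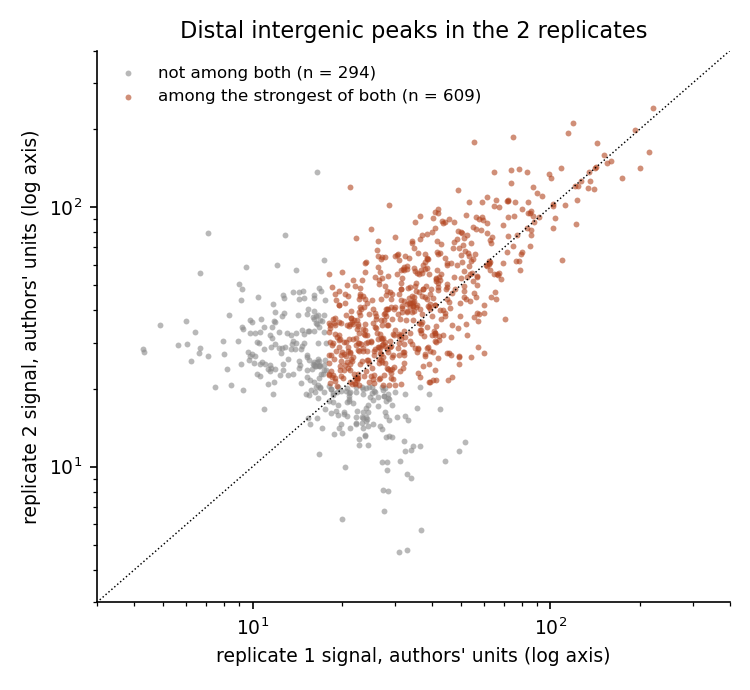
Signal of distal intergenic peaks in replicate 1 (x, authors' units, log axis) and replicate 2 (y, log axis), 1 point per peak, for the 903 with a peak in both full lists; the dotted line is equality. The 609 in orange are strong in both replicates, and the 20 strongest lie at the upper right.

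Single members, picked after their values were seen, differed widely between replicates in either direction. The peak 2894 bp upstream of sma-9, a Schnurri-type cofactor of TGF-beta signalling, ranked 213 in the thresholded list. It ranked 3879 in replicate 1 (signal 21.3) and 150 in replicate 2 (signal 119). The peak near R03E9.2, at rank 99, ranked 361 in replicate 1 and 35 in replicate 2. The peak nearest to irld-18, at rank 140, had no replicate 1 peak at its summit and ranked 61 in replicate 2. These 3 ranked higher in replicate 2. Others ranked higher in replicate 1, among them a peak nearest to the homeobox gene ceh-43 (rank 2937), at rank 1128 in replicate 1 and 9188 in replicate 2. A peak nearest to nhr-137 (rank 4482) ranked 2010 and 17130. A weaker peak nearest to C02B4.3 (rank 888) ranked 602 in replicate 1 and had no replicate 2 peak at its summit.

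The 20 strongest distal peaks had signals of 246 to 457, and each was strong in both replicates. Of these, 12 lay on X, against 20.2% of all thresholded peaks. In gaps between convergent genes lay 10 of the 20, against 113 of all 940 distal members. Upstream of their nearest start lay 7 of the 20, against 68.9% of all distal members and 72.7% of all thresholded peaks. The strongest, at rank 11, lay 4005 bp downstream of the start of W02H3.3, a gene of unknown role, and ranked 12 in replicate 1 (signal 221) and 12 in replicate 2 (signal 241). The next, at rank 21, lay 4914 bp upstream of xol-1, the X-linked switch gene of sex determination, with signals of 193 and 199 in replicates 1 and 2. That summit also lay 286 bp from an arginine tRNA gene, C18A11.t2. These leading members were strong in both libraries, from which the list itself was derived.

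Among the other members of the top 20, the peak at rank 44 lay 1962 bp upstream of nhr-85, a nuclear receptor gene of the molting cycle, on chromosome I. Its signal was 143 in replicate 1 and 176 in replicate 2, and its window held the ROR element. The peak at rank 103 lay 1980 bp upstream of hif-1, the hypoxia-inducible factor, with signals of 109 and 141. The peak at rank 82 lay 1982 bp upstream of sup-26, an RNA-binding protein gene, with signals of 135 and 137. At rank 88 the nearest start was that of nlp-40, which encodes a neuropeptide released from the intestine, 1921 bp away. The remaining nearest genes were Y48G8AR.8, F19H6.5, cbl-1, K02D3.1, ZK899.6, F20B6.9, gtr-1, K07F5.15, F22H10.2, C02B4.3, C30E1.4, F43E12.1, R03E9.2 and F22G12.3. Of these, cbl-1 encodes a cystathionine gamma-lyase, and gtr-1 a G protein-coupled receptor family member. In this set 4 windows held AGGTCA or GGGTCA, 2 the ROR element and 5 GAGAGA.

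Summits lay a median of 2884 bp from the nearest start, with a range of 1501 to 16231 bp. Between 2000 and 3000 bp the members were denser than the sequence that meets the rule, with 31.6% (28.6 to 34.7) against 26.9% of it. At 1500 to 2000 bp lay 20.4% of members (17.9 to 23.1), and this interval included the 18.0% of the sequence found there. Beyond 5000 bp they were sparser, with 15.9% at 5000 to 10000 bp against 20.8% of the sequence and 2.66% beyond 10000 bp against 4.69%. In all, 648 members (68.9%, 65.9 to 71.9) lay upstream of their nearest start, against 63.8% of the sequence that meets the rule and 72.7% of all thresholded peaks. Trans-splicing removes the 5' end of many worm transcripts, so an annotated start can lie downstream of the true one.

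**Figure D2:**
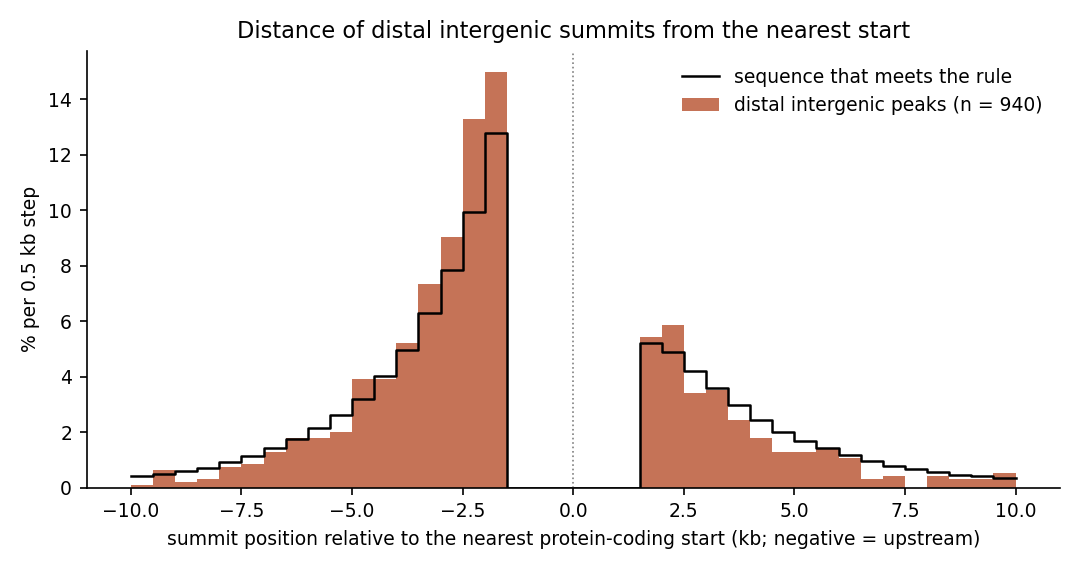
Position of distal intergenic summits relative to the nearest protein-coding start (x, kb, negative is upstream) as % of the 940 members per 0.5 kb step (bars), with the sequence that meets the rule in the same steps (line); positions beyond 10 kb are not drawn. The bars stand above the line between 1500 and 3000 bp upstream, and 68.9% of members are upstream.

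The gaps that held the peaks differed by the orientation of the flanking genes. Divergent gaps held 31.5% of members and tandem gaps 56.4%, at 49.4 peaks per Mb of eligible sequence in each. Convergent gaps, between the 3' ends of 2 genes, held 113 members on 16.6% of the sequence, or 33.9 per Mb. The convergent members were fewer but not weaker, with a median signal of 63.8 against 56.1 in divergent and 57.2 in tandem gaps. On X convergent gaps held 17.3% of members on 12.9% of the sequence, and on the autosomes 10.1% of members on 17.7%. The share upstream of the nearest start was 66.0% in the 235 strongest members and 73.2% in the 235 weakest.

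Of the 5 members just inside the distance limit, the nearest genes were F09G2.1, swt-3, imph-1, H21P03.10 and T20F5.4, at 1501 to 1510 bp and ranks 451 to 4732. The 5 just outside, at 1498 to 1500 bp and ranks 158 to 3063, were nearest to rsks-1, cth-2, C18D11.6, W04D12.1 and mfb-1. The 5 farthest members were nearest to Y23H5B.5 (16231 bp), irld-18 (13347 bp), nhr-41 (12892 bp), C31H1.2 (12755 bp) and col-105 (12303 bp). The farthest of all lay 54 bp from a small nucleolar RNA gene, Y23H5B.10. The irld-18 and col-105 peaks were strong, with signals of 225 and 147.

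Chromosome X held the most distal peaks, 248 of 940 (26.4%, 23.6 to 29.3), against 20.2% of all thresholded peaks and 18.7% of the other peaks. X also holds 23.3% of the sequence that meets the rule, just below the interval of its share of members. Its density was 52.9 per Mb, against 46.7 for all chromosomes together, X included. Chromosome III was densest at 64.7 per Mb, with 60.4 in replicate 1 alone and 67.3 in replicate 2 alone. Chromosome V was sparsest at 32.2 per Mb, with 29.5 and 31.2, and IV followed at 36.0. Chromosomes I and II had 51.2 and 54.5. The order of the extremes was the same in each replicate. X held 12 of the 20 strongest members and 28 of the 100 strongest. The median signal was 58.9 on X and 56.8 on the autosomes.

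**Figure D3:**
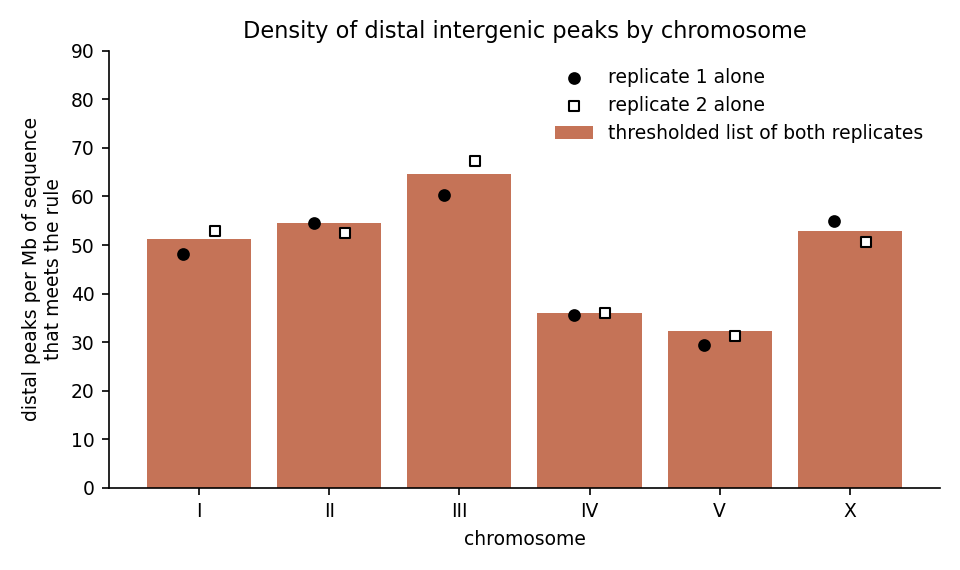
Distal intergenic peaks per Mb of sequence that meets the rule (y) on each chromosome (x), for the thresholded list (bars) and for the strongest peaks of replicate 1 (circles) and replicate 2 (squares), as many as the list holds. Chromosome III is highest at 64.7 and V lowest at 32.2, and each replicate gives the same extremes.

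Along the chromosomes, 62.1% of autosomal members (58.4 to 65.8) lay in the central 50% of their chromosome, which holds 45.6% of the eligible autosomal sequence. On X the share was 50.4% (44.0 to 56.8), against 42.7% of the sequence. Other peaks were similar, at 65.2% and 53.9%. Summits fell on repeats less often than the repeats' share of the eligible sequence, and rarely on pseudogenes. A soft-masked base, the reference's mark of repeats and low complexity, lay under 14.1% of distal summits and 14.5% of all thresholded summits, against 40.7% of the eligible sequence. Only 3 distal summits (0.319%, 0.0659 to 0.93) lay inside a pseudogene, although pseudogenes cover 11.3% of that sequence, and 0.182% of all thresholded summits did so. Replicate 1 alone had 7 such summits and replicate 2 alone 3. Whether reads that map to several places were kept is not given in the sources used here, and the part of read mapping in these values was not tested.

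A pair of letter patterns marked the summits. GAGAGA lay within 50 bp of 287 distal summits (30.5%, 27.6 to 33.6), against 26.5% of all thresholded summits. It was found in 5.90% of windows centred 500 bp from the same summits and in 5.33% of the 199300 windows of the same length tiled over the eligible sequence. AGGTCA or GGGTCA lay at 130 summits (13.8%, 11.7 to 16.2), against 11.0% of all thresholded summits, 4.10% of the flanking windows and 4.15% of the tiled windows. The same letters in reversed order, ACTGGA or ACTGGG, lay at 6.70%, against 5.46% of all thresholded summits. The flanking windows held them at 4.41% and the tiled windows at 5.55%. The ROR element, AGGTCA or GGGTCA preceded by 5 bases that are mostly A or T, lay at 16 summits (1.70%), against 1.09% of all thresholded summits, 0.532% of the flanking windows and 0.227% of the tiled windows. The ROR element contains AGGTCA or GGGTCA, so these counts overlap.

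Both patterns were centred on the summit. In windows of 51 bp, AGGTCA or GGGTCA was found at 7.45% of distal summits at the centre and at 2.02% and 1.70% of windows 500 bp to either side. GAGAGA reached 17.1% at the centre. Together 37 summits held both patterns and 560 (59.6%, 56.4 to 62.7) held neither. Signal differed little: the median was 59.0 with AGGTCA or GGGTCA and 57.4 without, 61.6 with GAGAGA and 55.9 without, and 70.2 at the 16 summits with the ROR element. GAGAGA was rarer on X, at 20.2% of distal summits there and 34.2% on the autosomes. AGGTCA or GGGTCA showed 11.3% on X and 14.7% on the autosomes, and among the other peaks the order was the opposite, 15.9% and 9.0%.

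**Figure D4:**
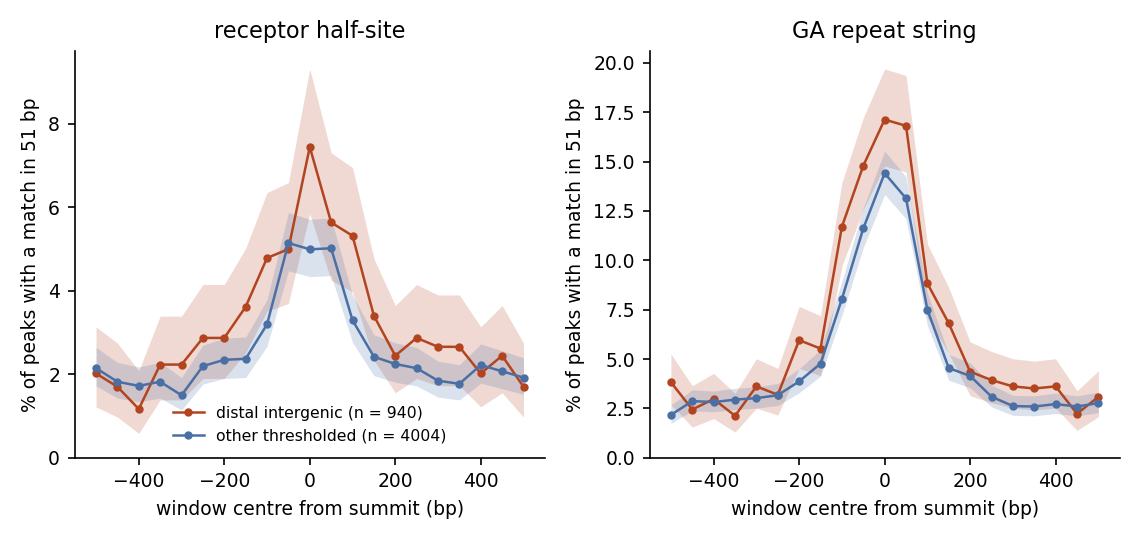
Share of peaks with AGGTCA or GGGTCA (left) and GAGAGA (right) in a window of 51 bp (y, %) by the distance of the window's centre from the summit (x, bp), for 940 distal and 4004 other thresholded peaks; bands are exact 95% intervals. The curves of distal peaks are highest at the summit, at 7.45% and 17.1%; for the other peaks AGGTCA or GGGTCA is about level from 50 bp on one side to 50 bp on the other.

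Of the 2080 possible strings of 6 letters, with both strands counted as 1, GAGAGA had the largest excess at distal summits over their flanks. The next 4 by excess all contained AGAGA, among them AGAGAC at 21.0% of summits and 3.56% of flanks. In place 6 was CGTCTC, at 17.7% of summits against 2.34% of flanks. At the other thresholded summits GAGAGA was at 25.5%, AGAGAC at 18.7% and CGTCTC at 17.3%. AGGTCA was place 42 and GGGTCA place 165. At the other end AAAATT was at 48.2% of flanks and 12.3% of summits, and at 16.8% of the other thresholded summits. TTTTTTTT was at 4.15% of distal summits and 4.33% of all thresholded summits, against 13.7% of tiled windows. CANNTG, the E-box, was at 40.6%, against 39.6% of all thresholded summits, 28.8% of flanks and 29.6% of tiled windows. TGATAA was at 13.0% (10.9 to 15.3), against 9.69% of all thresholded summits and 9.04% of tiled windows. Its share of flanks was 10.7% (9.33 to 12.2), and these 2 intervals overlap. The median G+C content was 42.6% at distal summits, 44.6% at other summits and 33.7% in tiled windows, and its part in these shares was not tested.

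Noncoding RNA genes lay near many distal summits. With piRNA genes left out, 392 members (41.7%, 38.5 to 44.9) lay within 1500 bp of one, against 32.0% of all thresholded peaks and 23.9% of the eligible sequence. Within 500 bp there were 248, and 102 summits lay inside such a gene. Most were near unclassified ncRNA genes, 203 members (21.6%) within 500 bp, against 16.5% of all thresholded peaks and 9.44% of the sequence. Many of these overlap a gene of another class or lie antisense to it, so 1 peak is counted beside both.

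Transfer RNA genes, which RNA polymerase III transcribes from promoters within the gene, lay within 500 bp of 43 members (4.57%, 3.33 to 6.11). The share was 2.65% among all thresholded peaks and 0.739% of the eligible sequence. Of the 43, 28 were on X, or 11.3% of the X members against 1.85% of the X sequence. On the autosomes 15 of 692 members (2.17%) were near one, against 0.399% of the sequence. Replicate 1 alone gave 47 such peaks and replicate 2 alone 42, with 30 and 28 on X. The summits sat close to the genes: 35 were within 100 bp, 6 were inside, and the median gap was 34 bp. The genes served 13 amino acids per the RefSeq annotation, arginine most often with 6 peaks, then alanine, glutamate and serine with 5 each. The strongest was the xol-1 peak beside C18A11.t2, followed by rank 197, 236 bp from the arginine gene F13G11.t1 on chromosome IV. The summit inside T18D3.t1 on X ranked 979, with signals of 70.7 in replicate 1 and 37.2 in replicate 2. The median signal of the 43 was 56.2, close to that of all members.

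MicroRNA genes lay within 500 bp of 18 members (1.91%, 1.14 to 3.01), against 0.829% of all thresholded peaks and 0.478% of the sequence. In 15 of the 18 the summit was upstream of the gene's annotated 5' end. Replicate 1 alone gave 23 such peaks and replicate 2 alone 21. The strongest lay 319 bp upstream of mir-79 on chromosome I, at rank 42, with signals of 119 in replicate 1 and 210 in replicate 2. The let-7 peak shown above ranked 549 and lay 119 bp upstream of the annotated let-7 primary transcript, with signals of 79.2 and 57.2. Its window held 1 TGACCT, the reverse complement of AGGTCA, and 4 overlapping matches to GAGAGA.

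The stronger mir-241 peak ranked 497 and lay 444 bp upstream of that gene, with signals of 80.2 and 67.2. The mir-48 peak, 194 bp upstream, ranked 4270, with signals of 21.5 and 36.1. The peak beside mir-84 ranked 3951 and lay more than 500 bp from the gene. All 4 let-7 family genes named here thus had a distal summit within 1500 bp, 2 of them strong in rank and 2 near the end of the list. The peak upstream of mir-228, at rank 561, had no replicate 1 peak at its summit. Others lay upstream of mir-788 (rank 925), mir-52 (rank 1292), mir-42 (rank 1748) and mir-80 (rank 2134).

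Small nucleolar RNA genes, whose products guide the modification of other RNAs, lay within 500 bp of 16 members (1.70%), against 1.96% of all thresholded peaks and 0.345% of the sequence. None of the 16 was on X. The strongest were at C16D9.10 (rank 761), C18A3.12 (rank 949), ZK20.9 (rank 1049) and F32E10.10 (rank 1073), with the summit inside the first and 9, 24 and 40 bp from the others. The C16D9.10 peak was also within 343 bp of a tyrosine tRNA gene. Long intergenic RNA genes had 17 members (1.81%, 1.06 to 2.88), against 0.829% of all thresholded peaks and 1.23% of the sequence. The strongest were at linc-107 (rank 201), linc-128 (rank 357), linc-151 (rank 772) and linc-91 (rank 862). Small nuclear RNA genes had 2 members (0.213%), at M163.13 and sls-2.9, against 0.647% of all thresholded peaks. The piRNA genes, which lie in dense clusters, had 41 members (4.36%), below their 8.98% of the sequence and above the 2.55% of all thresholded peaks.

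**Figure D5:**
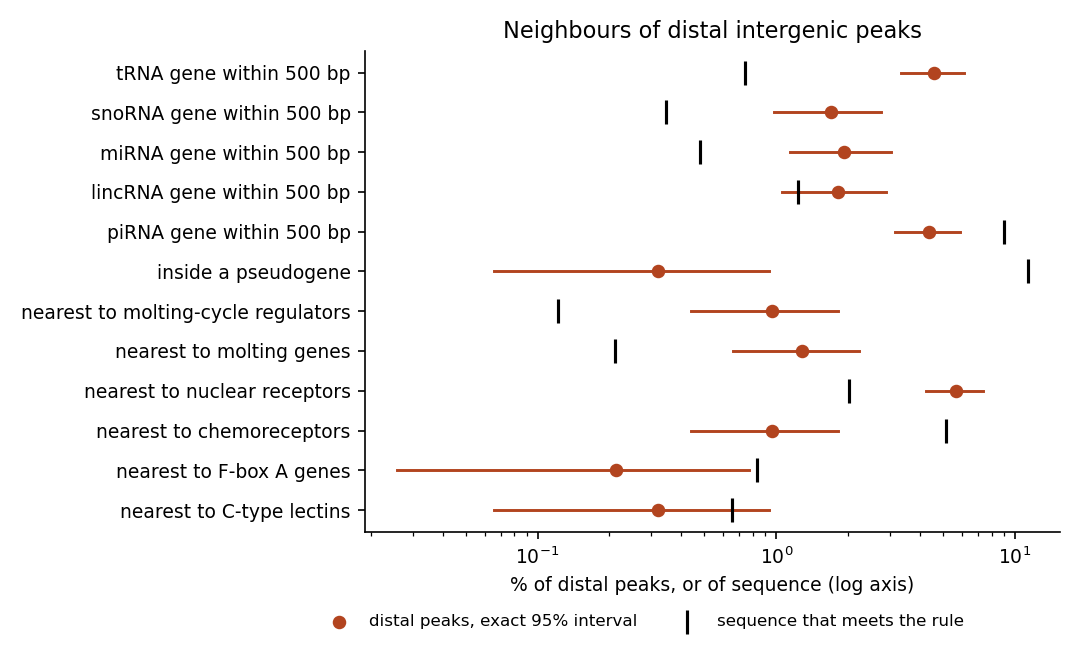
Share of the 940 distal intergenic peaks (orange, with exact 95% interval) near noncoding gene classes or nearest to genes of a list, beside the share of eligible sequence in the same position (black bars); the x axis is % on a log scale. tRNA, miRNA and molting lists lie right of their sequence share, and pseudogenes, piRNA genes and chemoreceptors left of it.

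The 940 members were nearest to 727 of 19973 protein-coding genes (3.64%). For 580 genes there was 1 member and for 102 there were 2. Nearest is an annotation, not evidence that a peak acts on the gene. Regulators of the molting cycle were nearest to 9 members (0.957%, 0.439 to 1.81), against 0.769% of all thresholded peaks and 0.121% of the eligible sequence. The interval included the share of all thresholded peaks. The members involved 6 of the 10 genes listed, and all 9 summits were upstream. Besides nhr-85, these were blmp-1, peb-1, myrf-1, nhr-25 and bed-3. Of the 9 windows 1 held AGGTCA or GGGTCA and 4 held GAGAGA, against 11.0% and 26.5% of all thresholded summits.

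The blmp-1 gene, which encodes a Blimp-type zinc finger factor of developmental timing, had 2 distal peaks. They lay 3057 and 1659 bp upstream, at ranks 278 and 460, with signals of 72.0 and 57.7 in replicate 1 and 106 and 90.2 in replicate 2. No thresholded peak nearest to blmp-1 lay within 1500 bp of a start, whereas nhr-85 had 3 and peb-1 4. The peb-1 peak ranked 1265 (signals 45.0 and 44.4), 2488 bp upstream of the gene of a DNA-binding factor needed for molting. The 2 myrf-1 peaks, beside a membrane-bound factor needed for larval progression, ranked 2065 and 2683. The nhr-25 peak, beside a Ftz-F1-type receptor gene, ranked 7606 in replicate 1 and 1722 in replicate 2. Both bed-3 peaks ranked below 4300.

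Molting genes with structural, protease or signalling roles were nearest to 12 members (1.28%, 0.661 to 2.22), against 0.89% of all thresholded peaks and 0.212% of the sequence. Here too the interval included the share of all thresholded peaks. The members involved 8 of 27 genes, with 11 summits upstream. Of the 12 windows 4 held AGGTCA or GGGTCA, against 11.0% of all thresholded summits. The strongest was 2084 bp upstream of pan-1, a leucine-rich repeat protein gene, at rank 263 with signals of 87.4 and 92.0. The stronger noah-1 peak ranked 395, 3289 bp upstream of this apical matrix gene, with signals of 77.4 and 77.9. Then came osm-11, a Notch co-ligand (rank 649, downstream), and fbn-1, a fibrillin-related matrix gene (rank 792). The mlt-8 peak, whose ROR element is printed above, ranked 1084 with signals of 35.9 and 66.5. Further peaks were near mlt-11, lrp-1 and qua-1. In replicates 1 and 2 alone, the list had 11 and 10 distal peaks.

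Nuclear receptor genes, a family much expanded in C. elegans, were nearest to 53 members (5.64%, 4.25 to 7.31), against 2.99% of all thresholded peaks and 2.01% of the sequence. They involved 39 of 274 genes, and 42 summits were upstream. In replicate 1 alone the share was 4.89% and in replicate 2 alone 5.70%. Their median signal was 63.5. AGGTCA or GGGTCA was in 3 of the 53 windows, against 11.0% of all thresholded summits, and GAGAGA in 17, against 26.5%. After nhr-85, the strongest were beside nhr-88 (rank 136, signals 123 and 106), nhr-20 (rank 285, signals 76.2 and 105) and nhr-61 (rank 288, signals 88.1 and 87.8). The steroid receptor gene daf-12 had 1, at rank 950. This list shares nhr-85 and nhr-25 with the molting-cycle regulators.

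Chemoreceptor genes, a large sensory family, were nearest to 9 members (0.957%, 0.439 to 1.81). This was below their 5.12% of the eligible sequence, and the interval included the 0.587% of all thresholded peaks. Of these, 2 lay upstream, and the strongest were beside srg-64, srh-16, str-166 and srd-7. C-type lectin genes had 3 members (0.319%), against 0.142% of all thresholded peaks and 0.653% of the sequence. F-box A genes had 2 (0.213%), against 0.121% of all thresholded peaks and 0.83% of the sequence. No member was nearest to any of the 14 body wall muscle markers, against 0.101% of all thresholded peaks.

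The other lists had few distal peaks, and the 95% interval of each included the share of all thresholded peaks. Among heterochronic genes, which time larval development, 3 of 12 had 4 members in all (0.426%), against 0.708% of all thresholded peaks: 2 at blmp-1, 1 at daf-12 and 1 at lin-14 (rank 4607). Of the named cuticle collagens 3 of 20 had 4 members (0.426%), against 0.405% of all thresholded peaks and 0.0928% of the eligible sequence. They lay beside dpy-3 (rank 2500), rol-6 (ranks 3113 and 3776) and dpy-10 (rank 4810), with 7 such peaks in replicate 1 alone and 3 in replicate 2 alone. The wider col family had 7 members (0.745%) at 6 of 156 genes, against 1.03% of all thresholded peaks, led by col-185 (rank 188) and col-105 (rank 441). TGF-beta pathway genes had 4 members (0.426%) at 3 of 19 genes, against 0.425% of all thresholded peaks. These were sma-9, lon-1 (rank 910) and daf-4 (rank 4193). Ribosomal protein genes had 4 members (0.426%) at 3 of 79 genes, against 0.91% of all thresholded peaks. GAGAGA was at all 4 of these summits, against 26.5% of all thresholded summits.

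Homeobox ceh genes had 5 members at 4 of 63 genes (0.532%, 0.173 to 1.24), against 0.182% of all thresholded peaks and 0.547% of the sequence. Epidermal transcription factors had 3 members (0.319%), against 0.324% of all thresholded peaks, beside elt-3 (rank 2301), nhr-25 and ceh-16 (rank 3444). Hedgehog-related genes had 2 (0.213%), against 0.263% of all thresholded peaks, beside grd-4 (rank 1397) and qua-1. Intestinal markers had 1 (0.106%), against 0.0405% of all thresholded peaks, beside vit-2, a yolk protein gene, at rank 609 and 1926 bp upstream. Neuronal markers had 2 (0.213%), against 0.101% of all thresholded peaks, both beside snt-1, at ranks 978 and 1896 and more than 10000 bp from its start. Hox genes had 1, against 0.101% of all thresholded peaks, beside ceh-13 (rank 2604), which ranked 11582 in replicate 1 and 1775 in replicate 2. The Wnt, Notch and EGF list had 1, against 0.101% of all thresholded peaks, beside bar-1 (rank 4771).

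Some genes had clusters of distal peaks. In all, 188 members had another thresholded summit within 1000 bp, against 17.8% of all thresholded peaks. The genes ZC190.4 and egl-27 were each nearest to 6 members, all upstream, and egl-27 encodes an MTA-type chromatin factor. The egl-27 summits spanned 7386 bp, lay 3506 to 10892 bp upstream and had signals of 39.9 to 80.7. Of those 6 members 3 were strong in both replicates, against 1 of 6 at ZC190.4. The genes F45D3.2, F57G12.1, dmd-6, doxa-1 and mdl-1 each had 5. The doxa-1 gene encodes a maturation factor of the dual oxidase that crosslinks cuticle, and all 5 of its members were upstream and strong in both replicates, with a top rank of 362. The dmd-6 gene, of the DM-domain family, had a top rank of 197. Among genes with 4 or more members, the longest gap holding them ran from 9049 bp at mdl-1 to 35563 bp at dmd-6. The median gap over all members was 7555 bp, and the part of gap length in these counts was not tested.

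The mdl-1 gene, a Mad-like partner of the Max-type factors, had 5 members within 7485 bp, with a top rank of 155. That peak had signals of 55.3 in replicate 1 and 179 in replicate 2, and 4 of the 5 members lay downstream of the start. The peaks near R03E9.2 described above lie in the gap upstream of mdl-1. The Max-like gene mxl-3 was nearest to 4 members, with a top rank of 541, and C30G12.2, CC8.2, W05H9.4 and bcl-11 also had 4 each.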

How the data were processed

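ChIP-seq peak lists were analysed for 2 biological replicates of 1 group. Per the deposited text files, the authors called peaks per replicate and on pooled alignments, and derived the thresholded list by an irreproducible discovery rate procedure. The sources used here name no aligner, peak caller or threshold. The signal is the authors' value per peak and was used only to rank peaks within a list. Coordinates are ce11, 1-based, with genes from Ensembl release 115 (WBcel235). Sequences, noncoding gene names and soft-masking came from RefSeq on the same build. Eligible sequence is every base that meets the position rule. Scripts ran in Python 3.11.15 with pandas 2.3.3 and scipy 1.17.1, were tested on simulated positions, and used exact (Clopper-Pearson) 95% intervals. Replicate support means that the summit lay in a peak among a replicate's 4944 strongest, the length of the thresholded list. Members, lists and motifs were chosen with earlier results of these data known, and some list entries were corrected after values were seen. Named genes were the nearest genes of the 20 strongest and 5 farthest members, of 5 either side of the limit, those with 4 or more members, and up to 4 per list or noncoding class. Genes named beyond these (among them sma-9, mir-84, nhr-25, bed-3 and mlt-8), and the 6-letter strings, were chosen after their values were seen. Alternatives varied the limit, window, list strength and replicate. The ce10 lists were not used.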

Additional observations from a re-analysis of the deposited data

How the results depend on the processing

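The number of distal peaks was 451 at a limit of 3000 bp and 543 when all genes except piRNA genes set bodies and starts, both by construction of a stricter rule. It was 920 to 930 in single replicates. At 3000 bp the X share was 29.9%, the noncoding share 48.1% and the upstream share 65.9%. Taking the nearest gene body in place of the nearest start gave an upstream share of 52.2%. The share with AGGTCA or GGGTCA was 7.45% within 25 bp and 22.2% within 100 bp, and that with GAGAGA 17.1% and 46.1%, as shorter and longer windows give. In the 2472 strongest thresholded peaks the GAGAGA share was 34.3%, the median percentile 49.2 and the share strong in both replicates 94.7%. Among all 940 members, reciprocal overlap of at least 50% lowered the share strong in both replicates from 64.8% to 46.7%. Including piRNA genes gave 46.1% near a noncoding gene, and a limit of 500 bp gave 26.4%. In single replicates the median percentile was 47.6 to 49.0, the X share 25.6% to 28.0%, the AGGTCA or GGGTCA share 12.6% to 13.7%, the GAGAGA share 28.3% to 30.5% and the noncoding share 42.3% to 44.8%. Of 43 alternatives, 25 stayed close to the main value (within its interval or replicate spread, or for counts within 1.5 times). The remaining 18 moved beyond those bounds. No paired analysis was possible because there is 1 group. Depth is unknown, peaks are ranked by the authors' signal, and nearest starts depend on the annotation.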
